A study of Mus musculus with 2 samples.

Results

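Mki67 and Top2a are the 2 genes described here, of 479 genes on a Xenium In Situ panel. They were chosen as markers of dividing cells and not for their values in these sections, although earlier results of these data were known. Mki67 encodes Ki-67, a protein that coats chromosomes in mitosis and is absent from resting cells. Top2a encodes topoisomerase II alpha, which untangles DNA so that chromosomes can separate. Transcripts of both genes accumulate from S phase through G2 to mitosis and are low in resting cells, so a cell that holds both is usually read as cycling. In carcinomas the share of tumour cells with Ki-67 is a routine measure of growth. Dividing T cells, macrophages, vessel cells and fibroblasts of a section can hold the transcripts too.

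Xenium In Situ decodes single RNA molecules inside a tissue section and assigns each to a segmented cell, here called a barcode. There was 1 section of an EKP tumour and 1 of an RKP tumour. EKP and RKP are the labels of cultured mouse lines grown as subcutaneous allografts, and the tissue is labelled diffuse gastric cancer. The labels do not spell out the letters or say which line carries the mutant RHOA of the series title. In both groups 3000000 cultured cells in Matrigel, a basement membrane gel, were placed in each flank of C57BL/6 mice aged 5 weeks, with no other treatment stated. Tumours were collected at similar final volumes. The host kept its own immune system, skin and stroma, so the sections hold cells of the line and cells of the mouse. No group had a replicate section. Differences between the sections therefore have no replicate check and no p-value, and intervals cover counting error only.

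The EKP section had 261111 barcodes with a median of 84 gene counts and the RKP section 255744 with a median of 154. At 80 or more gene counts there were 133173 barcodes in EKP (51.0%) and 201447 in RKP (78.8%), with median depths of 191 and 185. The sections shared 19 barcode names. To compare like with like, each of these barcodes was thinned at random to 80 gene counts before a gene was called present, while the gates used all counts of the barcode. The line's cells were sought among barcodes with 3 or more counts of Krt8, a keratin of simple epithelia, split by Epcam, an adhesion molecule of epithelial cells. Single-marker gates took 1 or more counts of Cd3e (T cells), Cd68 (macrophages), Pecam1 (endothelium), Lum (fibroblasts) or Krt5 (basal and squamous epithelium). Barcodes can pass several gates. As a reference for cells that no longer divide, barcodes with Cxcr2 and Csf3r and fewer than 3 Krt8 counts were taken, the receptors of mature neutrophils.

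The promoters of both genes are shown because they carry the elements through which cell cycle genes of this class are known to be read together. The CHR element binds the DREAM and MuvB complexes, which hold such genes off in resting cells and switch them on in G2, and the CCAAT box binds NF-Y. Each window runs from 250 bases before to 50 bases after a start in the RefSeq promoter table (GRCm38.p6), 5′ to 3′ on the gene's own strand, with matches to TTTGAA (CHR) and CCAAT on either strand in capitals. Mki67 lies on the minus strand of chromosome 7, with its window at chr7:135716330-135716629, and Top2a on the minus strand of chromosome 11, with its window at chr11:99024140-99024439. These starts lie 71 bases (Mki67) and 10 bases (Top2a) inside the outer end that the RefSeq gene table gives for each gene.
Mki67: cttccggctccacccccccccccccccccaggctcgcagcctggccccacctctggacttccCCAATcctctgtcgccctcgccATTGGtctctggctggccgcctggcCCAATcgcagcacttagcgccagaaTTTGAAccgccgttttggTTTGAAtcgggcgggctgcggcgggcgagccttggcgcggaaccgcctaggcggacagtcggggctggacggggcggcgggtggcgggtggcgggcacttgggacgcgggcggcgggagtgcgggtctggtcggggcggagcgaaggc
Top2a: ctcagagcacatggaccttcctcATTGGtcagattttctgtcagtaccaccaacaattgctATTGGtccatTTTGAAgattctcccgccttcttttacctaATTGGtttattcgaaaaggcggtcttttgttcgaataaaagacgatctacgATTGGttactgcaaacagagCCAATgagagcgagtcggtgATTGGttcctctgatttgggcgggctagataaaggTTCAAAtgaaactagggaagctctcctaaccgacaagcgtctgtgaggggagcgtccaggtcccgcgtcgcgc
The Mki67 window held 2 matches to TTTGAA, at 116 and 98 bases before that start, and 3 matches to CCAAT. The Top2a window held 2 matches to TTTGAA and 6 to CCAAT, 5 of them on the opposite strand. The motifs do not overlap each other. Of 32851 promoter windows of this length, 17.9% held at least 1 TTTGAA, 2.31% at least 2, 37.4% at least 1 CCAAT, 3.37% at least 3, and 6.95% at least 1 of each. No match to the E2F core (TTTGGCGC, TTTCCCGC or TTTCGCGC on either strand) was in either window, and 1.84% of all windows held one. The windows differ in base composition, with 72.7% G and C and 32 CpG pairs for Mki67 against 47.7% and 16 for Top2a.

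Over whole sections both genes were detected well above the control probes and both were higher in RKP. Mki67 (chromosome 7, 135689784 to 135716450, GRCm38.p6) made up 2632 of every 1000000 gene counts (counts per 1000000, CPM) in EKP. In RKP it made up 3638, which is 1.38 times as many (95% counting interval 1.37 to 1.39). Top2a (chromosome 11, 98992947 to 99024199) made up 2846 CPM of the EKP section and 3699 of the RKP section, 1.30 times as many (1.29 to 1.31). The highest negative control probe reached 9.84 CPM in EKP and 3.66 in RKP. Neither gene reached 1.5-fold, a size that 14.5% of 477 kept genes passed in the direction of RKP. The median kept gene was lower in RKP, at a log2 ratio of -0.43, and the genes lay at percentiles 81.1 and 77.6 of the kept genes. A gene was kept if it passed the control limit in at least 1 section. Over the 441 genes that passed it in both sections the median was -0.24. Scaling set the size: with counts per barcode the ratios were 1.98 for Mki67 and 1.86 for Top2a, and with median-of-ratios scaling 1.64 and 1.54, both past 1.5-fold.

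Most barcodes held neither transcript. In EKP 87.0% of all barcodes had no Mki67 count and 85.9% no Top2a count, and in RKP the values were 74.8% and 74.0%. Barcodes with 3 or more counts made up 3.83% (Mki67) and 3.93% (Top2a) in EKP, and 7.89% and 7.93% in RKP. These few barcodes held 64.3% and 63.1% of all Mki67 and Top2a counts in EKP, and 64.9% and 63.6% in RKP. The highest single barcode had 29 Mki67 counts in EKP and 25 in RKP, and 31 and 30 Top2a counts. The counts of both genes were thus concentrated in a minority of barcodes in each section.

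In barcodes thinned to 80 counts, both genes together were found in 5.81% of EKP barcodes and 8.39% of RKP barcodes, a ratio of 1.44 (1.41 to 1.48). Among Krt8 barcodes of any Epcam level the shares were 7.86% and 10.3%, a ratio of 1.31 (1.26 to 1.35). Krt8 barcodes were 48.1% of the EKP barcodes and held 65.0% of those with both genes, and in RKP they were 54.2% and held 66.3%. In the neutrophil reference gate 2.17% of 4414 EKP barcodes and 3.01% of 6406 RKP barcodes held both genes, at a median depth of 121 counts in each. This was the lowest share of the gates set side by side here. The summed level of Csf3r, Cxcr2, Il1r2 and Mmp9 in this gate was 78383 CPM in EKP and 95107 in RKP. That of Lum, Col1a1, Dpt and Mfap5 was 93188 and 63596 CPM. The neutrophil sum was 0.724 (EKP) and 0.821 (RKP) times as high with both genes as with neither. Summed T cell markers were 1.31 and 4.63 times as high. The part that transcripts of neighbouring cells play in the reference share was not tested.

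With all barcodes of a section pooled, the highest shares were in Krt8 barcodes with little or no Epcam. This order did not hold within every stretch of the files, as the values by file part given further on show. With Epcam at 0 or 1 count, 13.0% of 15785 EKP barcodes (12.5 to 13.6) and 16.4% of 26948 RKP barcodes (15.9 to 16.8) held both genes. With Epcam at 2 to 4 the shares were 4.92% of 8103 (4.46 to 5.42) and 7.85% of 14335 (7.41 to 8.30). With Epcam at 5 or more they were 6.42% of 40134 (6.18 to 6.66) and 8.35% of 67903 (8.14 to 8.56). Each gene by itself was also highest at Epcam 0 to 1. In Epcam 0 to 1 barcodes Mki67 was present in 22.4% and 30.2%, and Top2a in 26.5% and 31.6%. In barcodes with 5 or more Epcam counts Mki67 was in 13.6% and 17.3%, and Top2a in 14.3% and 19%. The share with both genes at Epcam 5 or more was 0.493 of that at Epcam 0 to 1 in EKP (0.466 to 0.520) and 0.510 in RKP (0.491 to 0.529).

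**Figure D1:**
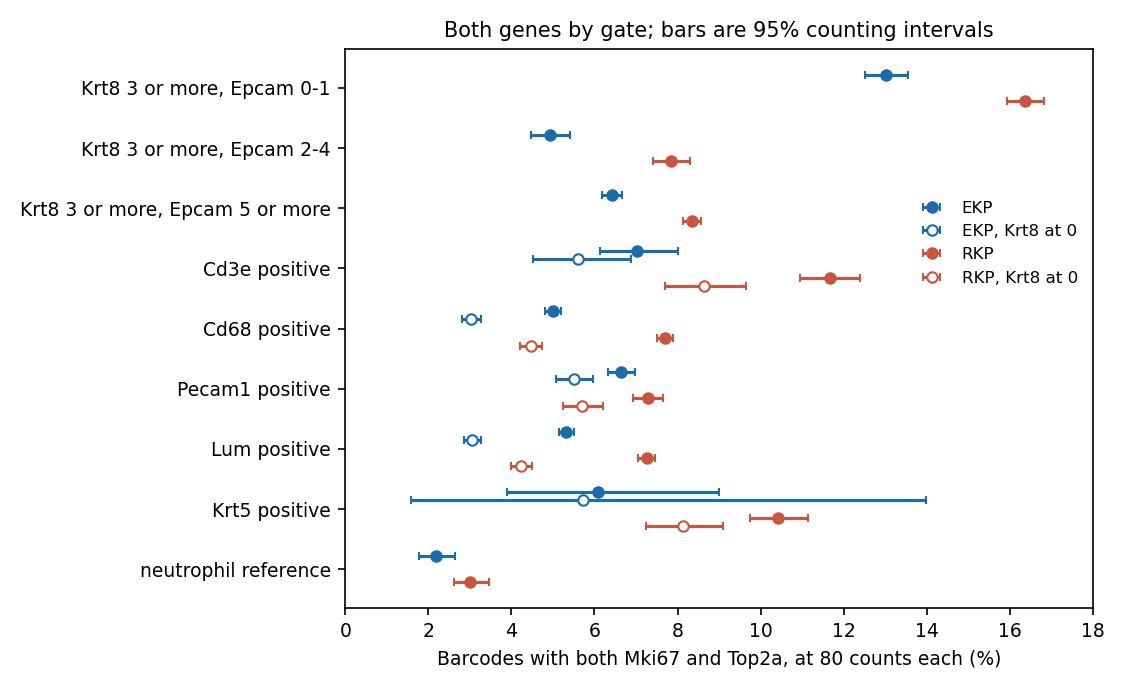
Share of barcodes with both Mki67 and Top2a (horizontal axis, percent, each barcode thinned to 80 counts) by gate, for the EKP and RKP sections, with 95% Clopper-Pearson counting intervals; open points keep only barcodes with no Krt8 count. Krt8 barcodes with Epcam 0 to 1 lie furthest right, at 13.0% and 16.4%, and the neutrophil reference furthest left among filled points, at 2.17% and 3.01%.

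The fall was complete within the first few Epcam counts and did not go on from there. In EKP both genes were found in 14.6% of Krt8 barcodes with no Epcam count, 7.38% with 1 and 4.72% with 2. The share then stayed between 4.72% and 5.14% up to 7 Epcam counts and reached 7.20% at 20 or more. In RKP the steps were 17.8% at 0, 12% at 1 and 8.50% at 2. It lay between 7.51% and 7.53% from 3 to 7 Epcam counts and reached 9.46% at 20 or more. The shares thus formed a steep drop followed by a shallow rise, and depth moved with the rise. The median depth was 180 counts at 5 to 7 Epcam counts and 379 at 20 or more in EKP, and 171 and 391 in RKP.

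**Figure D2:**
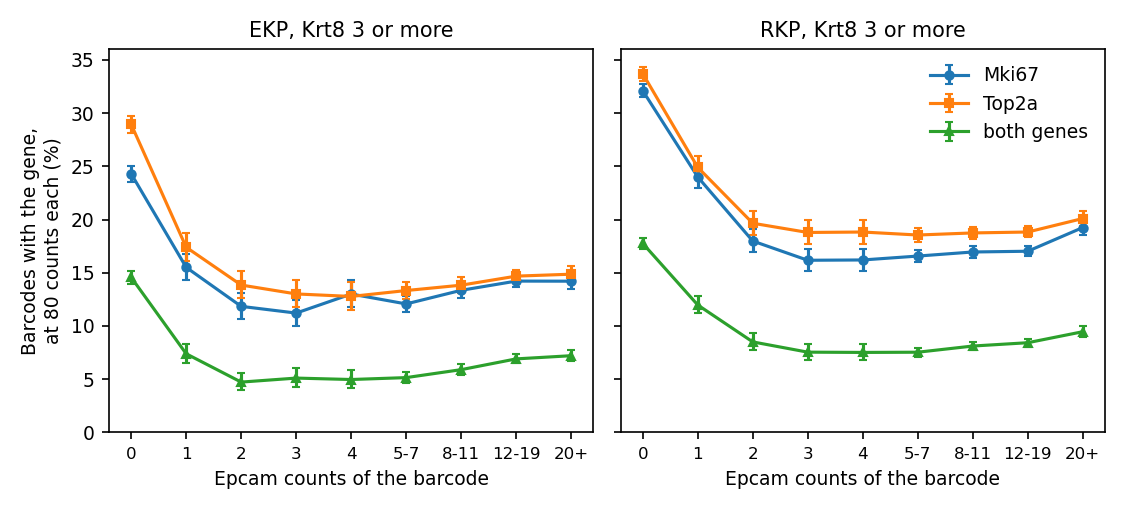
Share of Krt8 barcodes with Mki67, Top2a or both (vertical axis, percent, at 80 counts each) by the Epcam counts of the barcode, with 95% counting intervals, for EKP (left) and RKP (right). In each section the 3 curves drop between 0 and 2 Epcam counts, for both genes from 14.6% to 4.72% in EKP and from 17.8% to 8.50% in RKP. Beyond that they change less, and the share with both genes reaches 7.20% and 9.46% at 20 or more.

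Thinning equalises the counts read but not the cells they come from, and deeper barcodes still held both genes more often. In EKP the Epcam 0 to 1 share was 8.75% at depths from 80 to under 160 counts, 12.8% from 160 to under 320 and 21.7% at 320 or more. The matching Epcam 5 or more shares were 3.39%, 5.61% and 8.99%. In RKP they were 13.8%, 16.6% and 23.6% against 6.40%, 7.75% and 10.7%. Barcodes with low Epcam were thus higher in each of the 3 depth bands of both sections.

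Barcodes with Epcam at 0 to 1 also carried more counts of fibroblast and macrophage markers than those with Epcam at 5 or more. The summed level of 4 fibroblast markers (Lum, Col1a1, Dpt, Mfap5) was 51770 CPM at Epcam 0 to 1 and 22778 at Epcam 5 or more in EKP, and 24500 and 16436 in RKP. The summed level of 4 macrophage markers (Cd68, Mrc1, Mpeg1, Folr2) was 10579 and 4352 CPM in EKP, and 17453 and 5967 in RKP. With barcodes holding any count of Cd3e, Cd68, Pecam1, Lum or Krt5 left out, both genes were found in 12.6% and 6.50% in EKP and in 17.3% and 8.56% in RKP. The ratios without these barcodes were 0.516 in EKP and 0.496 in RKP, beside 0.493 and 0.510 with them. Other epithelial genes were lower too. The summed level of Cdh1, Krt19, Cldn4 and Cldn7 was 18458 CPM at Epcam 0 to 1 against 91432 at Epcam 5 or more in EKP, and 6843 against 85278 in RKP.

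The spread within a section was wide. The deposited files hold no positions, so each file was cut into 10 successive parts, whose order is not stated to be place. Over these parts the Epcam 0 to 1 share ran from 3.47% to 18.3% in EKP and from 2.88% to 24.3% in RKP. The Epcam 5 or more share ran from 2.15% to 12.6% and from 4.77% to 10.6%. The low Epcam share was the higher one in 8 of 10 parts in EKP but in 5 of 10 in RKP. In RKP 5 parts held 88.5% of the low Epcam barcodes, at 3000 or more each, and their shares with both genes were 10.3% to 24.3%. In the other RKP parts, with 390 to 819 such barcodes each, the shares were 2.88% to 8.32%. With every part given the same weight the share ratio of Epcam 5 or more to Epcam 0 to 1 was 0.615 in EKP and 0.772 in RKP. Against the other gates the order also differed by part. In RKP the Cd3e share was above the Epcam 0 to 1 share in 7 of 10 parts and the Krt5 share in 4 of 10. The median part there was 9.30% for Epcam 0 to 1, 11.2% for Cd3e, 9.56% for Krt5 and 9.42% for Epcam 5 or more. In EKP the Cd3e share was above the Epcam 0 to 1 share in 1 of 10 parts, with medians of 7.45% and 12.1%.

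**Figure D3:**
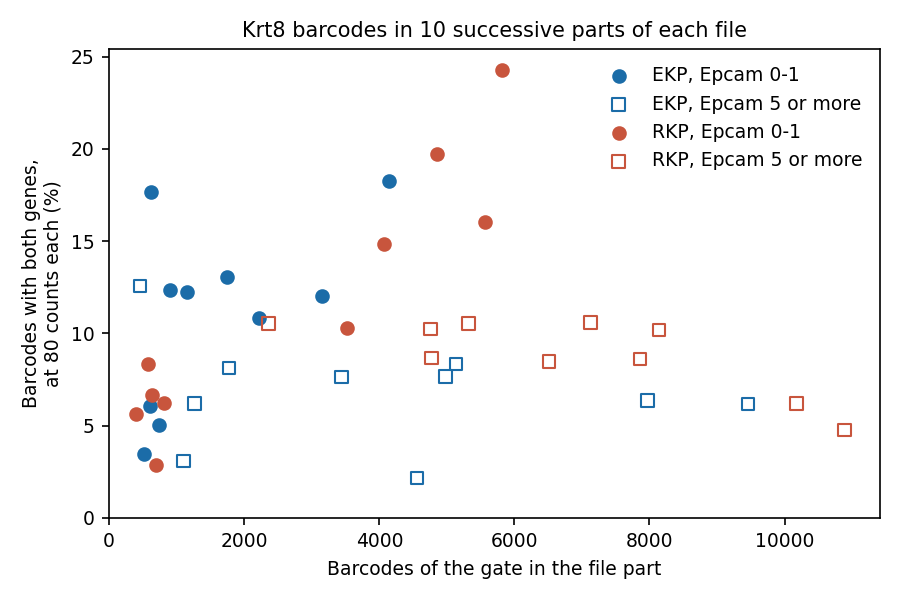
Share of Krt8 barcodes with both genes (vertical axis, percent, at 80 counts each) against the number of barcodes of that gate, in each of 10 successive parts of the EKP and RKP files. The RKP points for Epcam 0 to 1 split into 5 parts with 3000 or more barcodes at 10.3% to 24.3% and the other 5 at 2.88% to 8.32%.

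Between sections, each Krt8 gate was higher in RKP when all barcodes were weighted alike. The ratio of RKP to EKP shares with both genes was 1.26 at Epcam 0 to 1 (1.20 to 1.32), 1.59 at Epcam 2 to 4 (1.43 to 1.78) and 1.30 at Epcam 5 or more (1.24 to 1.36). With the file parts weighted alike the Epcam 0 to 1 ratio was 1.04. The ranges over file parts overlapped between sections in each Krt8 gate. The genes differed a little in this comparison: at Epcam 0 to 1 the CPM of Mki67 was 1.30 times as high in RKP (1.27 to 1.32) and that of Top2a 1.06 times (1.04 to 1.07). At Epcam 5 or more the ratios were 1.22 and 1.26. Over Krt8 barcodes of any Epcam level they were 1.26 and 1.19, below a 1.5-fold size that 20.7% of 468 kept genes passed in that direction.

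Shares in the immune and stromal gates differed with Krt8. Pooled over each section they lay below those of Krt8 barcodes with low Epcam, an order that the Cd3e gate reversed in most RKP file parts. Cd3e barcodes held both genes in 7.03% of 2915 in EKP and 11.7% of 7605 in RKP, a ratio of 1.66 (1.43 to 1.92). Cd68 barcodes did so in 5.0% of 46745 and 7.70% of 80545, a ratio of 1.54 (1.47 to 1.61). Lum barcodes did so in 5.32% of 58455 and 7.26% of 64190, a ratio of 1.36 (1.31 to 1.42). Pecam1 barcodes differed least, with 6.64% of 22472 and 7.28% of 20650, a ratio of 1.10 (1.02 to 1.18). Of these 4 gates, 27.2% to 43.8% of the barcodes also had 3 or more Krt8 counts. In both sections these Krt8-bearing barcodes held both genes 1.60 to 2.98 times as often as barcodes of the same gate with no Krt8 count. They were also deeper. In EKP their median depths were 230 to 268 counts over these gates, against 141 to 163 with no Krt8 count. The part of depth in these ratios was not tested.

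With Krt8 at 0 the T cell gate was still the highest of these 4 in RKP, and in EKP it did not differ from the endothelial gate beyond counting error. Cd3e barcodes without Krt8 held both genes in 5.61% of 1552 in EKP (4.51 to 6.87) and 8.64% of 3288 in RKP (7.70 to 9.65). Pecam1 barcodes did so in 5.51% of 10191 (5.08 to 5.98) and 5.71% of 9263 (5.25 to 6.20), and the RKP to EKP ratio of 1.04 had an interval of 0.923 to 1.16. Cd68 barcodes held both genes in 3.03% of 21351 and 4.46% of 24948, and Lum barcodes in 3.06% of 27636 and 4.23% of 25222. The last pair lay close to each other in each section and less than 1.5-fold above the neutrophil reference. Median depths in the Krt8 0 gates were 141 and 132 counts for Cd3e and 151 to 163 for the other 3, against 121 in the reference.

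Within these Krt8 0 gates, the gate's own markers were present in barcodes with both genes, at levels above or below those of barcodes with neither. In Cd3e barcodes the summed level of the other T cell markers (Cd3d, Cd8a, Ctla4) was 25839 CPM with both genes and 17740 with neither in EKP, and 30858 and 22292 in RKP. In Pecam1 barcodes the summed level of Kdr and Vwf was 26491 and 24047 CPM in EKP, and 21882 and 26072 in RKP. In Cd68 barcodes the other macrophage markers stood at 31771 against 41618 CPM in EKP and 36723 against 39702 in RKP. In Lum barcodes Col1a1, Dpt and Mfap5 summed to 80896 against 97560 CPM in EKP and 67551 against 81017 in RKP. Own markers were thus higher with both genes in Cd3e barcodes of both sections and lower in Cd68 and Lum barcodes of both. Markers of other types moved as well. The summed T cell markers were 1.97 (EKP) and 2.27 (RKP) times as high with both genes in Cd68 barcodes, and 2.04 and 2.22 times in Lum barcodes. The endothelial markers were 1.83 times as high in Cd68 and 1.90 times in Lum barcodes of EKP, but 1.00 and 1.14 times in RKP. The squamous markers were 2.78 (Cd68), 2.40 (Lum) and 3.06 (Pecam1) times as high in RKP, where they were measured at 686 to 1319 CPM in barcodes with neither gene. In Cd68 barcodes the epithelial markers (Epcam, Cdh1, Krt19, Cldn4, Cldn7) were 1.40 times as high with both genes in EKP and 1.32 times in RKP. In Cd3e barcodes they were 1.5 and 1.32 times as high, and in Pecam1 barcodes 0.666 and 0.948 times. Over the 10 file parts of RKP, the share with both genes in Krt8 0 barcodes went with that in Krt8 barcodes (Pearson r 0.93 for Cd68, 0.88 for Pecam1, 0.85 for Lum and 0.73 for Cd3e). In EKP r was -0.19, 0.37, 0.01 and 0.47 (n = 10 parts each, which share the section, its segmentation and their neighbours). The part that transcripts of adjoining cells, of the tumour or of these other types, play in these shares was not tested.

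Krt5 barcodes were few in EKP and many in RKP. Both genes were found in 6.08% of 378 Krt5 barcodes in EKP (3.90 to 8.99) and 10.4% of 7503 in RKP (9.74 to 11.1), a ratio of 1.71 (1.15 to 2.56). In EKP 66.7% of them had 3 or more Krt8 counts and the other squamous markers (Krt79, Calm4, Dsc3) summed to 152 CPM, so the gate's label was not borne out there. In RKP the same markers summed to 27120 CPM and 44.5% had 3 or more Krt8 counts. With Krt8 at 0 the shares were 5.71% of 70 in EKP (1.58 to 14.0) and 8.13% of 3433 in RKP (7.23 to 9.09), and the ratio of 1.42 had an interval of 0.545 to 3.71. Without barcodes that carried another marker, 3 of 23 EKP barcodes and 8.28% of 2573 RKP barcodes held both genes.

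The balance between the genes shifted with the gate. Probe efficiency differs between genes, so the count of Mki67 over that of Top2a is read only between gates. Pooled over each section, it was below 1 in the Krt8 gates. At Epcam 0 to 1 it was 0.784 (0.769 to 0.799) in EKP and 0.963 (0.949 to 0.976) in RKP. At higher Epcam it was 0.893 to 0.945 in both sections. In the Cd3e, Cd68, Pecam1 and Lum gates with Krt8 at 0 it lay above 1, from 1.08 to 1.19 in EKP and from 1.18 to 1.31 in RKP, with Cd3e in RKP the highest at 1.31 (1.23 to 1.40). The neutrophil reference stood at 0.894 and 0.893, with Krt8 counts up to 2 allowed. Over file parts the range in EKP Epcam 0 to 1 barcodes was 0.612 to 0.965 with a median of 0.892, and the gate as a whole lay below that median. Some other gates crossed 1 over parts with 50 or more Top2a counts, but RKP at Epcam 5 or more did not (0.882 to 0.964). Among those that crossed, the range was 0.742 to 1.16 in EKP at Epcam 5 or more and 0.861 to 1.07 in RKP at Epcam 0 to 1. With Krt8 at 0 the lowest EKP parts were 0.842 (Pecam1), 0.927 (Cd3e), 0.956 (Cd68) and 0.997 (Lum). In RKP they were 0.966 (Pecam1), 1.05 (Cd68), 1.06 (Lum) and 1.20 (Cd3e).

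Krt5 barcodes of RKP with no Krt8 stood apart from the other gates. They held 2953 Mki67 counts against 1266 Top2a counts, a ratio of 2.33 (2.18 to 2.49), and at 80 counts Mki67 was in 24.6% and Top2a in 14.7%. Mki67 without Top2a was found in 16.5% and Top2a without Mki67 in 6.52%. The ratio was 1.15 (0.965 to 1.36) at 1 Krt5 count, 2.00 (1.64 to 2.45) at 2 to 4 and 2.74 (2.53 to 2.97) at 5 or more, so it was higher where Krt5 was higher. At 5 or more Krt5 counts it was 2.56, 2.95 and 2.28 in the depth bands from 80, 160 and 320 counts. It ran from 2.09 to 2.58 over the 3 file parts with 50 or more Top2a counts. In Krt5 barcodes with 1 Krt5 count and 3 or more Krt8 counts the ratio was 0.949 (0.909 to 0.992). This split by Krt5 level was chosen after the values were seen, and the 70 EKP barcodes of the gate, with 23 and 16 counts, gave 1.44 with an interval of 0.727 to 2.91. Levels of other cycling genes in this RKP gate were 1458 CPM for Cenpf, 1252 for Ube2c and 2980 for Pclaf, against 974, 1137 and 4032 in the Cd3e gate with no Krt8.

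**Figure D4:**
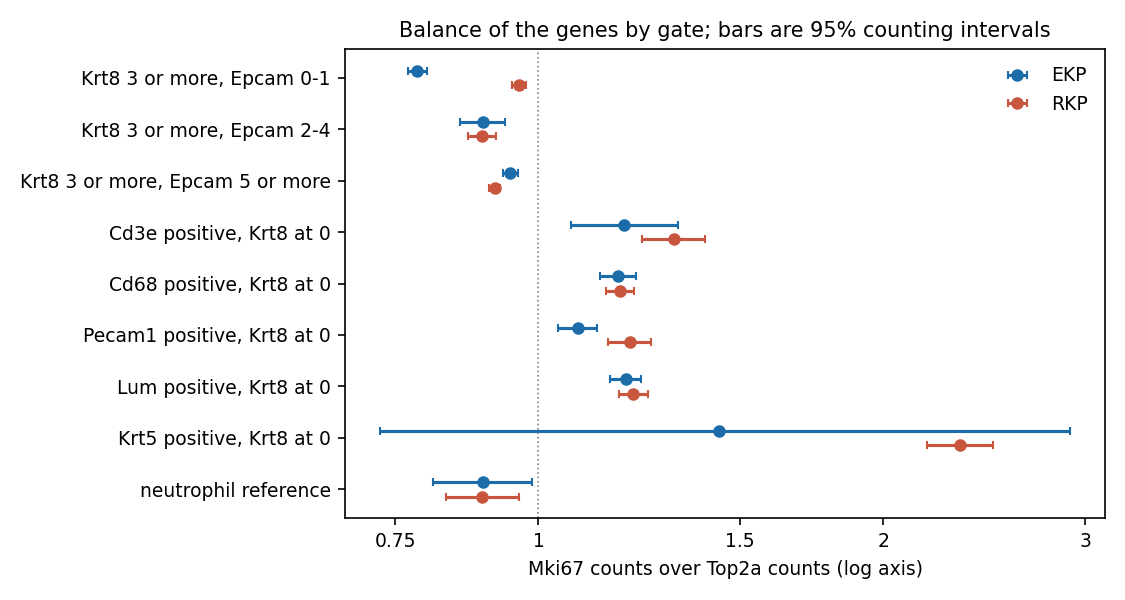
Mki67 counts over Top2a counts (horizontal log axis) in the Krt8 gates, in single-marker gates with no Krt8 count and in the neutrophil reference, with exact 95% counting intervals, for EKP and RKP. Krt8 gates lie left of 1, most gates without Krt8 lie between 1.08 and 1.31, and Krt5 barcodes of RKP lie at 2.33; the EKP Krt5 point rests on 70 barcodes.

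The genes were found together more often than their single shares would give. At 80 counts the observed share with both over the product of the single shares was 2.20 in EKP and 1.72 in RKP at Epcam 0 to 1, and 3.30 and 2.54 at Epcam 5 or more. Among Mki67 barcodes 58.1% and 54.3% also held Top2a at Epcam 0 to 1, and 47.1% and 48.2% at Epcam 5 or more. In the neutrophil reference 26.4% and 31.1% of Mki67 barcodes held Top2a. Its observed share over the product was nonetheless 3.22 in EKP. In RKP that value was 2.81 at depths from 80 to under 160 counts and 3.27 from 160 to under 320. This ratio cannot exceed 1 over the larger single share, so it is held down where single shares are high. Top2a was in 26.5% and 31.6% at Epcam 0 to 1, against 8.20% and 10.6% in the reference. The ratio therefore cannot order gates that differ in their single shares, and none is ranked by it here. Depth moved with the joint share: Krt8 barcodes with both genes had a median of 271 counts and those with neither 237 in EKP, and 235 and 221 in RKP. The part of depth in the joint share was not tested.

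Other genes of the cell cycle followed the pair, and the panel measured 10 of a list of 73, the pair included. In Krt8 barcodes thinned to 80 counts, levels in barcodes with both genes were set against those with neither, leaving the pair out of the totals. Of the other 8 list genes, 5 were at least 1.5-fold higher in both sections, against 8.05% of 385 kept genes, and 0 were at least 1.5-fold lower in both, against 8.83%. Their median ratio was 2.48 in EKP and 2.54 in RKP, beside 0.904 and 1.01 over kept genes. Cenpf, a kinetochore protein of G2 and mitosis, stood at 4670 CPM with both genes and 275 with neither in EKP (17.0-fold) and at 5550 and 468 in RKP (11.9-fold). Ube2c, which with the anaphase-promoting complex marks cyclins for destruction, was 16.2-fold and 11.6-fold higher. Pclaf, a PCNA-binding factor of S phase, was 6.74-fold and 5.23-fold higher, Stmn1, a microtubule regulator, 2.16-fold and 2.57-fold, and E2f1, a transcription factor of the G1 to S step, 2.79-fold and 2.51-fold.

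The 3 list genes that did not pass in both sections belong to the p53 and arrest group. Cdkn1a, which encodes the p21 inhibitor of cyclin-dependent kinases, stood at 3253 CPM with both genes and 9258 with neither in EKP, 2.85-fold lower. In RKP it stood at 2518 and 3682, 1.46-fold lower. Mdm2, the ubiquitin ligase that acts on p53, had ratios of 1.07 and 1.15, and Trp53 itself 1.44 and 1.21. Cdkn1a was also the list gene that differed most between sections, with 7553 CPM in EKP Krt8 barcodes and 3289 in RKP, a ratio of 0.436 (0.432 to 0.439). Cenpf was the list gene furthest the other way, at 955 and 1462 CPM, a ratio of 1.53 (1.5 to 1.56). Over whole sections 1 of the 10 list genes was at least 1.5-fold higher in RKP (Cenpf, 1.59) and 1 at least 1.5-fold lower (Cdkn1a, 0.589). The median log2 ratio of the 10 was 0.27. It was -0.43 over kept genes and -0.24 over the 441 genes above the control limit in both sections.

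By a rule of rank, 5 further genes were named for high levels beside the pair. Ezh2, the methyltransferase of Polycomb complex 2 and a known E2F target, was 2.81-fold and 2.74-fold higher with both genes. Pcolce2, an enhancer of procollagen processing, was 2.99-fold and 3.04-fold higher. Ppargc1a, a coactivator of mitochondrial genes, was 4.31-fold and 2.98-fold higher over all Krt8 barcodes. Within Epcam bands its ratio was 3.18 and 2.24 at Epcam 0 to 1 but 0.572 (0.115 to 1.74) and 1.35 at Epcam 5 or more, the EKP value resting on 3 counts. Ptprn2 and Scg5, genes of secretory granules, were 2.77-fold and 4.94-fold, and 2.65-fold and 2.92-fold higher, at levels of at most 642 CPM. Ezh2 kept a ratio of 2.62 to 3.10 in each Epcam band of both sections, and Pcolce2 one of 2.13 to 3.25. Ratios within Epcam bands are not given here for Ptprn2 and Scg5. The groups compared differed in Epcam, with Epcam at 0 to 1 more frequent beside the pair. In EKP such barcodes were 2056 of 5030 with both genes and 10125 of 48098 with neither. In RKP they were 4413 of 11206 and 14711 of 73937.

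The same rule named 8 genes for low levels beside the pair. Slc34a2, a phosphate carrier of the apical membrane, was 6.75-fold lower in EKP and 3.48-fold lower in RKP. Ndrg1, a gene of the response to low oxygen and of differentiation, stood at 3741 CPM with both genes and 14842 with neither in EKP, 3.97-fold lower, and at 2294 and 5851 in RKP, 2.55-fold lower. Its ratio was 0.221 to 0.294 over the Epcam bands of EKP and 0.366 to 0.431 over those of RKP. Aqp3, a water and glycerol channel, was 1.96-fold and 3.58-fold lower, Selenbp1 3.76-fold and 2.11-fold, and Muc2, the mucin of goblet cells, 5.44-fold and 1.94-fold. Hpx, which encodes the haem carrier hemopexin, was 2.81-fold and 2.40-fold lower, Aplp1 1.98-fold and 2.05-fold, and Cnn1, a contractile protein of smooth muscle, 1.93-fold and 2.54-fold. Several of these rest on few counts in the barcodes with both genes: 16 in EKP for Slc34a2, 21 and 22 for Muc2, 42 and 37 for Aplp1, and 14 and 100 for Hpx. Except for Ndrg1, ratios within Epcam bands are not given here for the genes named low. Their values hold for pooled Krt8 barcodes, whose groups differ in Epcam as given above.

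**Figure D5:**
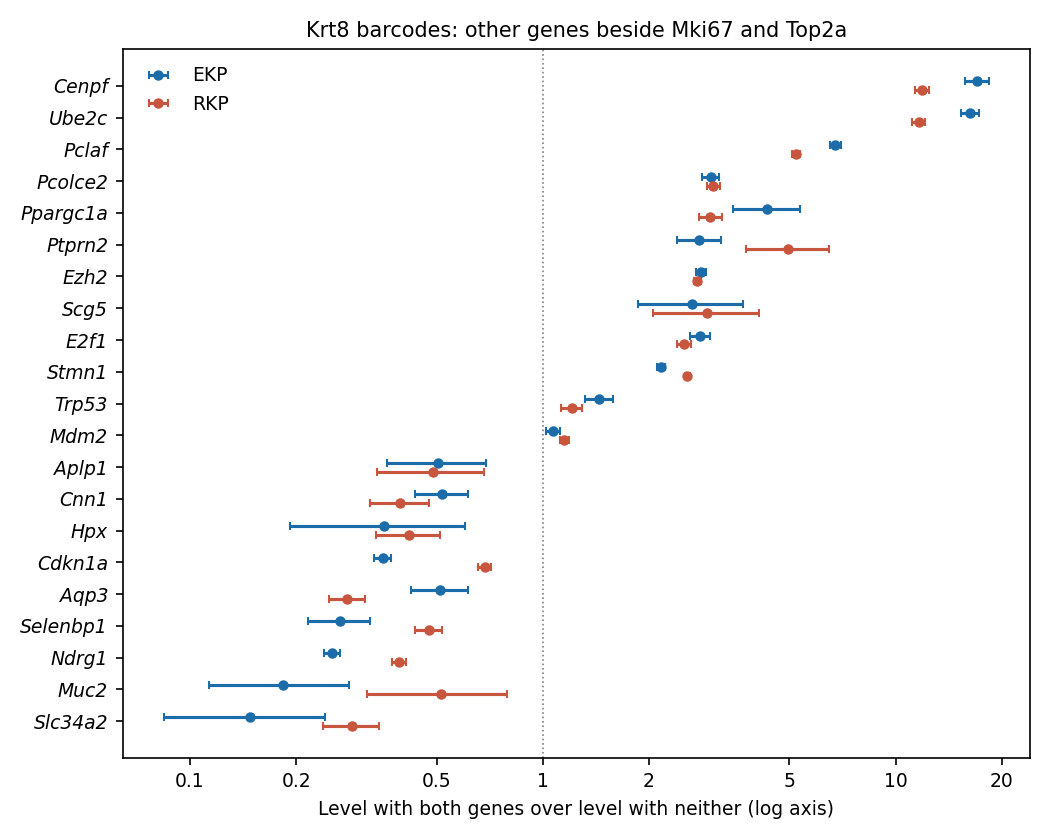
Level in Krt8 barcodes with both Mki67 and Top2a over the level in those with neither (horizontal log axis) for the cell cycle list genes and the genes named by rank, with exact 95% counting intervals, for EKP and RKP. Cenpf and Ube2c lie at 11.6 to 17.0, Mdm2 and Trp53 near 1, and Ndrg1 and Slc34a2 at 0.148 to 0.392.

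The same cycling genes marked both-gene barcodes outside the Krt8 gates. In the Cd3e, Cd68, Pecam1 and Lum gates with Krt8 at 0, Cenpf was 16-fold to 25.2-fold higher with both genes in EKP and 13.0-fold to 16.1-fold in RKP. Stmn1 was 5.48-fold to 8.87-fold higher in EKP and 4.47-fold to 6.42-fold in RKP, above its ratios of 2.16 and 2.57 in Krt8 barcodes, where its level with neither gene was already 8007 and 7966 CPM. Cdkn1a had ratios of 0.626 to 1.07 in EKP and 0.616 to 0.792 in RKP in these gates, against 0.351 and 0.684 in Krt8 barcodes. In Cd3e barcodes of EKP, the gate with the value of 1.07, its level thus did not fall with both genes.

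Across the 8 gates of each section, the mean level of the pair was matched most closely by other cycling genes. Mki67 and Top2a themselves had a Pearson r of 0.951 on log2(CPM + 10) over these 16 points. The 5 genes most like their mean were Cenpf (r 0.947), Pclaf (0.938), Ube2c (0.927), E2f1 (0.829) and Fech (0.827), the enzyme that puts iron into haem. Cdkn1a, at -0.686, ranked 476 of 477. These points share barcodes, sections and scaling, and the values are descriptions.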

How the data were processed

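Per the file headers, the authors deposited raw transcript counts per feature and segmented cell for 1 EKP and 1 RKP section, with no normalization and the Xenium software version given as unknown. The submitters' processing notes list Seurat 4.4.0 without saying what it did. The segmentation, any quality limit and cell positions were not given in the sources used here. Segmentation can place a neighbour's transcripts in a cell, which bears on every gate. Doublets were not called.

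Sections were grouped by title. Barcodes with 80 or more gene counts were thinned without replacement to 80 (seed 1), and gates used all counts. A gene counted as present at 1 or more counts. Shares have Clopper-Pearson 95% intervals, ratios of shares Katz intervals and level ratios exact conditional binomial intervals. A 1.5-fold difference is a rule of size, not a test. Genes were kept above the highest negative control probe: in at least 1 section for comparisons between sections, and in both barcode groups of both sections for those beside the pair. The thinning and ratio steps were tested on simulated data. Python 3.11.15, numpy 2.4.6, scipy 1.17.1 and pandas 2.3.3 were used.

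The genes, gates and lists were chosen with earlier results of these data known. The text names the cell cycle list genes on the panel, the 8 genes with the highest and the 8 with the lowest ratios beside the pair by the less extreme section, past 1.5-fold in both, and the 5 genes most alike over gates. Values by file part (each gate against Epcam 0 to 1 included), by Krt8 within single-marker gates, by Epcam band beside the pair and by Krt5 level were added after seeing the data. Alternatives changed the thinning depth, depth range, gates, mixed barcodes, detection rule and scaling. Coordinates and promoters are from RefSeq tables of GRCm38.p6. No protein or genome sequence was used.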

Additional observations from a re-analysis of the deposited data

How the results depend on the processing

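Neither section has a replicate, so no alternative tests a difference between the tumours. Of the single values, the Epcam 5 or more to Epcam 0 to 1 ratio of shares with both genes stayed below 1 under the 11 alternatives run, from 0.387 to 0.649 in EKP and from 0.453 to 0.772 in RKP. It was 0.649 and 0.676 without thinning, 0.441 and 0.453 thinned to 40, 0.387 and 0.465 at 80 to under 160 counts, 0.528 and 0.551 without the gate genes, 0.599 and 0.616 for either gene, 0.431 and 0.461 with stricter gates, and 0.615 and 0.772 with file parts weighted alike. It was 0.442 in EKP gated on thinned counts and 0.544 in RKP thinned to 160.

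RKP to EKP ratios of shares with both genes were above 1 for Cd3e, Cd68, Lum and the Krt8 gates under the alternatives run. At 80 to under 160 counts they were 2.09 (Cd3e), 1.90 (Cd68), 2.81 (Krt5), 1.57 (Epcam 0 to 1), 1.89 (Epcam 5 or more), 1.79 (Lum) and 1.37 (Pecam1). Without mixed barcodes they were 2.17 (Cd3e), 1.80 (Cd68), 1.37 (Epcam 0 to 1), 1.5 (Lum), 0.988 (Pecam1) and 0.635 (Krt5, on 23 EKP barcodes), the last a turn of direction. Gated on thinned counts they were 1.69 (Cd68), 1.27 (Epcam 2 to 4), 1.5 (Epcam 5 or more) and 1.47 (Lum). For either gene they were 1.38 (Cd68), 1.38 (Epcam 2 to 4) and 1.29 (Lum). At 160 counts they were 1.40 (Cd68) and 1.25 (Lum), and without thinning 1.42 (Epcam 2 to 4) and 1.28 (Lum). Stricter gates gave 1.74 (Cd68) and 0.977 (Pecam1), and parts weighted alike 1.04 (Epcam 0 to 1) and 1.17 (Pecam1).

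Whole-section ratios were 1.98 and 1.86 (Mki67, Top2a) per barcode, 1.64 and 1.54 by median of ratios, 1.34 and 1.27 in barcodes of 80 or more counts, and 1.34 and 1.26 without the 10 most abundant genes. Over the 441 genes above the control limit in both sections, the median moved from -0.24 to 0.27 (log2) between total and per-barcode scaling. The causes of these moves were not tested. For pooled gates, presence of the pair is not read below the thinned share of the neutrophil reference, 2.17% in EKP and 3.01% in RKP. This limit was not applied to file parts. Their shares include 2.88% in RKP at Epcam 0 to 1 and 2.15% in EKP at Epcam 5 or more, which lie below it. The reference gate also carried markers of other cell types, so its share is not that of neutrophils alone. EKP Krt5 barcodes are too few for a value by Krt5 level.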

Other observations

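Barcodes outside the Krt8 and single-marker gates held both genes in 4.03% of 8744 in EKP and 7.84% of 15342 in RKP, at median depths of 121 and 117 counts. The RKP to EKP ratio of 1.95 (1.74 to 2.19) lay above the 1.44 of all barcodes, and the gates do not say what these cells are.

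Krt5 barcodes of RKP with no Krt8 and 5 or more Krt5 counts held Mki67 in 30.3% and Top2a in 16.1% of 2064 barcodes, and both in 9.64%. Mki67 was thus as frequent there as in RKP Krt8 barcodes with Epcam at 0 to 1 (30.2%), where Top2a was found in 31.6%.

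The share with both genes by Krt8 count, over all barcodes, was 3.39% at 0, 4.91% at 1 to 2 and 7.11% at 3 to 5 in EKP. It was 8.16% there at 6 to 10, 8.41% at 11 to 20 and 7.37% at 21 or more. In RKP the share was 4.80%, 7.89%, 10.4%, 10.3%, 10.0% and 9.96% at the same counts, so it was nearly level from 3 Krt8 counts on.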
